A study of Mus musculus with 15 samples.

Results

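The genes described here are named as protein subunits of the cytosolic ribosome, although *Rps19bp1* among them encodes a binding protein and no subunit. They were taken as every gene symbol that starts with *Rpl* or *Rps* and a digit, together with *Rplp0*, *Rplp1*, *Rplp2* and *Rpsa*, without the *Rps6k* kinases and without symbols containing -ps, which marks pseudogenes. This gave 89 of 24982 symbols, 54 for the large and 35 for the small subunit by their names. They were measured by poly(A) RNA-Seq in whole aortas of 10-month-old male wild-type C57BL/6 mice (C57BL/6J in the study's methods), with 5 aortas in each of 3 groups. Control mice had a sham operation, the orchiectomy group had the testes removed, and the third group had an orchiectomy and a pellet of dihydrotestosterone (DHT), an androgen that cannot be converted to estrogen. All 3 groups received Aldo-salt, that is aldosterone at 200 µg/kg/d by osmotic minipump with 0.9% NaCl and 0.2% KCl in the drinking water, for 7 days after 2 weeks of recovery from surgery, so no group was free of Aldo-salt. The comparisons ask whether loss of testicular androgen, and its replacement by DHT, changed the mRNA levels of the translation machinery.

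The ribosome translates mRNA into protein. Its small subunit reads the message and its large subunit joins amino acids. Most ribosomal protein genes are used by every cell, and most of their products are needed in equal numbers in a ribosome. The mRNAs of these genes carry a 5′ terminal oligopyrimidine (TOP) tract, a cytosine followed by a run of pyrimidines at the cap. Through this tract LARP1 and the mTORC1 kinase adjust how strongly the mRNAs are translated and how long they are kept. RNA-Seq measures the level of the mRNAs, not their translation.

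The annotated starts of some members are shown because the TOP tract is the feature that these mRNAs are known to share. Of the 89 members, 68 had an entry in the RefSeq promoter table (GRCm38.p6). A cytosine followed by 4 bases that were each C or T lay over the annotated start in 15 of the 68 (22.1%), and in 324 of 11020 other genes with at least 10 counts in at least 5 libraries (2.9%). Within 5 bases of the annotated start it was found in 31 members (45.6%) and in 23.7% of the other genes, so most annotated starts did not lie exactly on such a run. In the windows below, which hold the 15 bases before and the 15 bases from the annotated start on the gene's strand, capitals mark the run of pyrimidines that covers the start base.
*Rps10*, chr17:27635230-27635259, minus strand: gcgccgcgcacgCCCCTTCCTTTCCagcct
*Rpl35*, chr2:39005117-39005146, minus strand: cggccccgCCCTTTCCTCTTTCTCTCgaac
*Rpl14*, chr9:120571502-120571531, plus strand: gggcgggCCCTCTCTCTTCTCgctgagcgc
*Rps15a*, chr7:118116133-118116162, minus strand: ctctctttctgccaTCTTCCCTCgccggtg
*Rplp2*, chr7:141447636-141447665, plus strand: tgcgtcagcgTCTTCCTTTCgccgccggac
*Rpl38*, chr11:114668565-114668594, plus strand: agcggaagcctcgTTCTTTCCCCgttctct
*Rpl7l1*, a paralog without the run, chr17:46782642-46782671, minus strand: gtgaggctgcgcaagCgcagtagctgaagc
The first 6 hold the run and the last holds a single pyrimidine at its start. Core members such as *Rplp0*, *Rpl4* and *Rpsa* also lacked the run at their annotated start. The 300-base promoters (250 bases before the start and 50 from it) were also searched on both strands for AGAACA, a hexamer that the androgen receptor is known to bind. It was found in 12 of 68 members (17.6%) and in 14.9% of the other genes. CCGGAAG, the core bound by ETS factors, was found in 38.2% and 18.4%, and AAGATGGC, a YY1 motif, in 8.8% and 4.8%. A match of letters does not show binding.

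Ribosomal protein mRNAs were abundant in every aorta. Of the 83 members that had at least 10 counts in at least 5 libraries, 74 had a mean above 100 CPM (read counts scaled to a common library size, after TMM adjustment). *Rplp0*, the base of the ribosomal stalk that recruits elongation factors, had the highest mean level, 821 CPM. It was followed by *Rpsa*, the small subunit protein also known as the laminin receptor, at 738 CPM, *Rpl4* at 735 CPM, *Rps2* at 652 CPM and *Rpl13a* at 640 CPM. Per kilobase of transcript the order was another one, with *Rplp1* (1153 CPM per kb), a second stalk protein, at the top, then *Rps15* (797 CPM per kb) and *Rpl13* (664 CPM per kb). The median was 353 CPM per kb, and 72 of the 83 lay between 100 and 1000 CPM per kb. Transcript lengths came from 1 GENCODE M21 transcript per gene, and for *Rps15a* and *Rps20*, at 37.0 and 79.7 CPM per kb, that transcript was 5179 and 3706 bases long.

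A few members were close to 0. *Rpl26*, *Rpl10l* and *Rps27rt* had 0 counts in all 15 libraries, *Rpl30* had 0 to 3, *Rpl39l* 0 to 5 and *Rpl32l* 1 to 10, and these 6 were not tested. *Rps27* (4 to 21 counts), *Rpl34* (3 to 38) and *Rpl3l* (0 to 48) passed the count filter. *Rpl10l* and *Rpl39l* are known as testis-enriched paralogs, and *Rpl3l* as a paralog of striated muscle. *Rpl26*, *Rpl30*, *Rpl34* and *Rps27* encode core subunits that every ribosome contains. Of the 100-base stretches of the *Rps27* transcript, 98.4% also occur in transcripts of other genes, among them *Rps27rt* and Gm17241. The share was 65.1% for *Rpl30*, 31.0% for *Rpl26* and 22.5% for *Rpl34*. Such copies were common among the members, with at least 10% of stretches shared in 70 of 89 and at least 50% in 35. How reads that fit several genes were counted is not given in the sources used here, so low counts of these core subunits cannot be read as low expression, and reads of other members may be divided with their copies. The 33 tested members with at least 50% shared had a median of 400 CPM per kb and the 16 with under 10% had 181 CPM per kb. The latter include *Rpl3l*, *Rps19bp1*, *Rps4l*, *Rpl7l1* and *Rps27l*, at 0.953, 26.1, 27.2, 34.1 and 158 CPM per kb. They also include *Rps15a* and *Rps20* with their long chosen transcripts. The 2 medians therefore compare unlike genes and do not show what sharing does to the counts.

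The members took 2.09% to 3.57% of all gene counts, a range of 1.71 times between the lowest and the highest library. In control aortas the share was 2.28%, 2.21%, 2.50%, 2.26% and 2.16% for replicates 1 to 5 (2.28% ± 0.13, SD, n = 5). After orchiectomy it was 3.26%, 3.57%, 2.09%, 2.33% and 2.57% (2.76% ± 0.63, SD, n = 5), and with DHT 2.69%, 2.86%, 3.26%, 2.15% and 2.90% (2.77% ± 0.40, SD, n = 5). The controls lay close together, the orchiectomy group held both the highest and the lowest aorta, and 4 of 5 DHT aortas were above every control. Reads assigned to no gene, given as a percentage in the same order, were 7.26%, 9.78%, 7.51%, 9.84% and 9.21% in controls, 6.26%, 6.83%, 10.4%, 7.44% and 6.84% after orchiectomy and 8.26%, 9.34%, 8.25%, 14.4% and 9.28% with DHT. The aortas with the lowest ribosomal protein share of the orchiectomy and the DHT group, replicates 3 and 4, had the highest percentage of such reads in their group. In controls, replicate 5 had the lowest share (2.16%) and replicate 4 the highest percentage of such reads (9.84%). The part of this measure in the members' values was not tested. In every library, large subunit counts were 1.43 to 1.56 times small subunit counts.

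**Figure D1:**
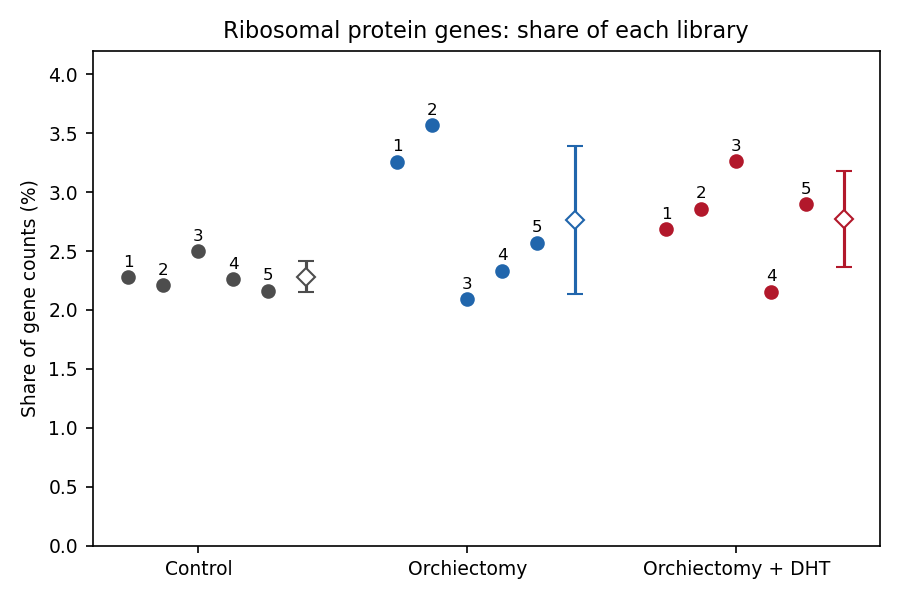
Share of gene counts (%, y axis) taken by the 89 ribosomal protein genes in each aorta (points, labelled with the replicate number) in the 3 groups; diamonds and bars are mean ± SD of 5 aortas. Orchiectomy replicates 1 and 2 and DHT replicate 3 are at 3.26% to 3.57%, and the 5 controls are at 2.16% to 2.50%.

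The members rose and fell together from aorta to aorta, within groups. After the group means were taken out, the median correlation between 2 members over the 15 libraries was r = 0.90 (quartiles 0.81 and 0.95, 3403 pairs), where all values share the libraries and their scaling. For 77 of 83 members (92.8%) the correlation with the mean of the others was above 0.8, against 4.91% of the other tested genes. Orchiectomy replicates 1 and 2 and DHT replicate 3 were each above every control for 79 of 83 members. DHT replicates 5, 2 and 1 were above every control for 75, 69 and 60 members, orchiectomy replicate 5 for 32, orchiectomy replicate 4 for 4, DHT replicate 4 for 2 and orchiectomy replicate 3 for 0. Orchiectomy replicate 3 was the lowest library for 49 members. The mean log2 CPM of the 83 members differed from the control mean by 0.54, 0.60, −0.26, −0.10 and 0.13 in orchiectomy replicates 1 to 5 and by 0.25, 0.27, 0.56, −0.01 and 0.34 in the DHT replicates.

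**Figure D2:**
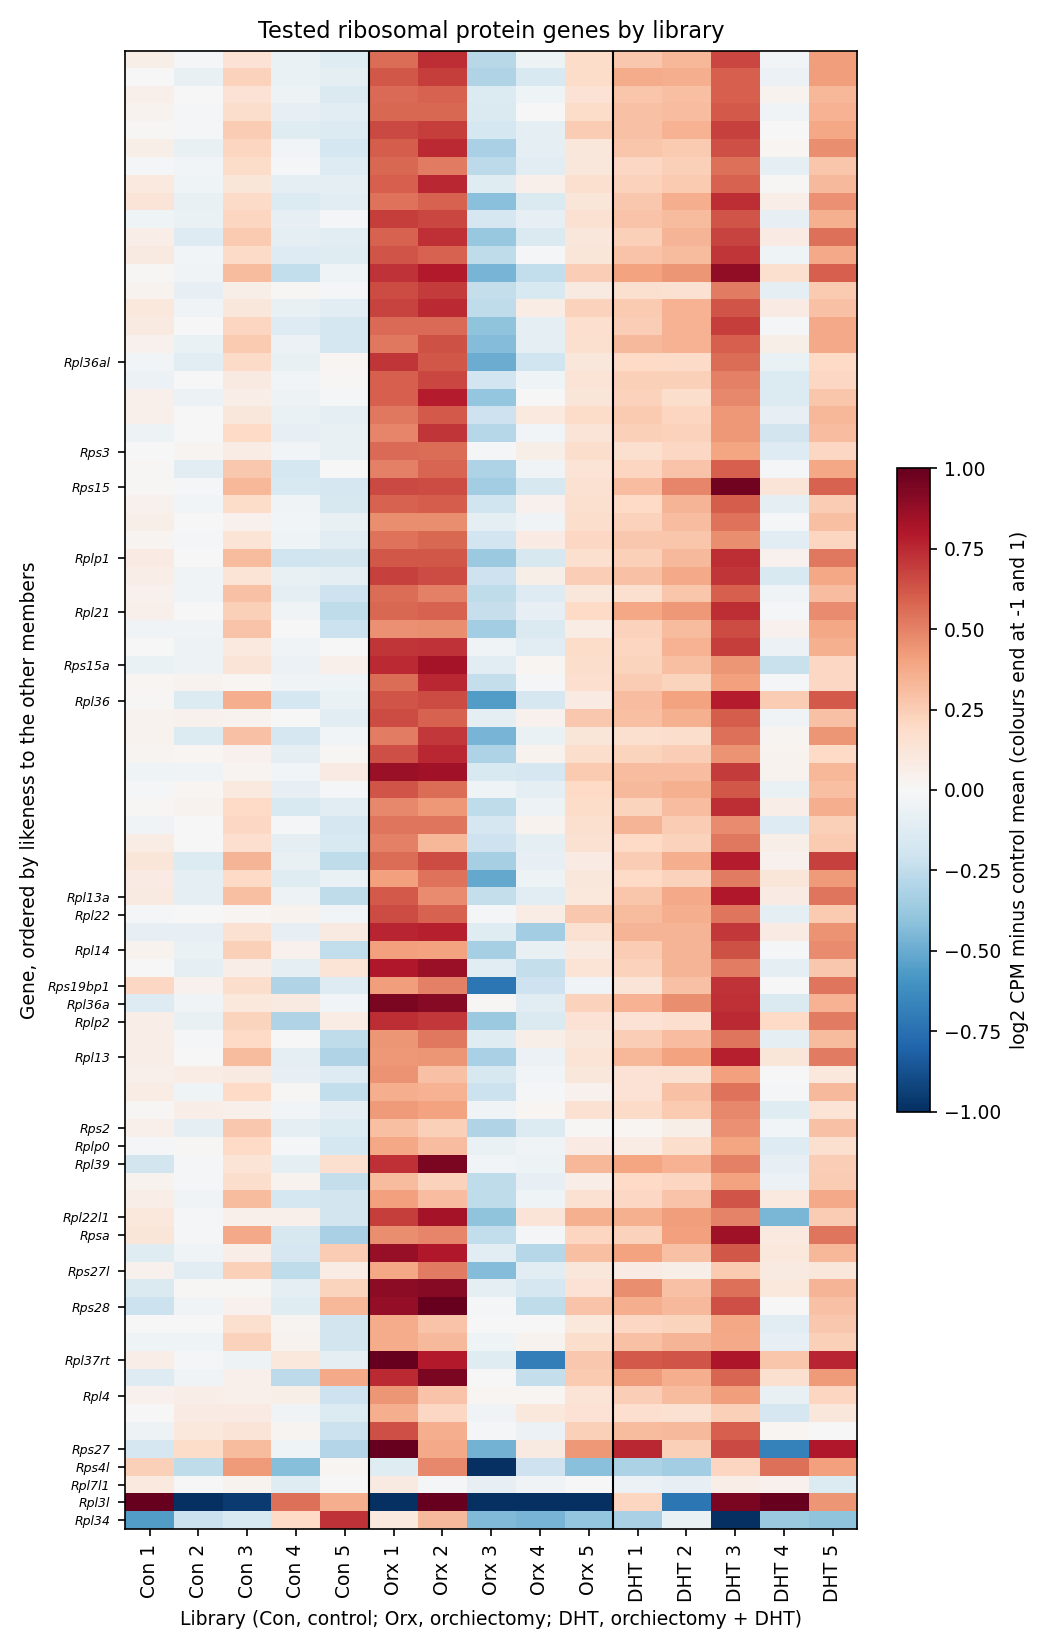
Log2 CPM of each of the 83 tested ribosomal protein genes (rows) minus its control mean in each aorta (columns); red is higher and blue lower than the control mean, and genes are ordered by their correlation with the other members, highest at the top, with only some genes named. Whole columns share a colour: orchiectomy replicates 1 and 2 and DHT replicate 3 are red in nearly all rows, orchiectomy replicate 3 is mostly blue, and *Rps4l*, *Rpl7l1*, *Rpl3l* and *Rpl34* at the bottom do not follow.

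The members that followed the rest least were *Rpl34* (r = −0.01), *Rpl3l* (0.29), *Rpl7l1* (0.36), *Rps4l* (0.53), *Rps27* (0.74) and *Rpl10a* (0.78). *Rpl34*, *Rpl3l* and *Rps27* had few counts. *Rpl7l1*, a paralog of *Rpl7* with a role in ribosome assembly, had 731 to 1272 counts and was the steadiest member, at 82.3 to 96.0 CPM in controls, 84.5 to 95.5 CPM after orchiectomy and 81.4 to 93.7 CPM with DHT. Its SD within groups was 0.08 on the log2 scale, against a median of 0.28 over the 83 members.

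Among other genes, chosen here after their values were seen, *Fau* had the highest correlation with the members (r = 0.99). *Fau* encodes a small subunit protein fused to a ubiquitin-like domain and was not covered by the naming rule. *Snrpd2*, a core spliceosome protein, followed (0.98), then *Drap1* (0.98), a transcriptional corepressor. At the other end were *Adnp* (−0.98), a chromatin-associated homeobox protein, and *Socs4* (−0.96). Transcript length moved with this pattern. The 693 other genes with r above 0.8 had a median transcript of 1323 bases and the 603 with r under −0.8 one of 6420 bases, while the median was 835 bases for members and 2993 bases for the other tested genes. In orchiectomy replicates 1, 2 and 3 and in DHT replicate 3, the median of 515 other genes with transcripts under 1000 bases and a mean of at least 10 CPM differed from the control mean by 0.35, 0.39, −0.55 and 0.47 on the log2 scale, where the members' medians differed by 0.57, 0.59, −0.23 and 0.60. The 3462 genes with 4000 bases or more went the other way, at −0.14, −0.26, 0.22 and −0.19. In DHT replicates 1 and 2 the members were at 0.25 and 0.31 and the short genes at 0.06 and 0.09. When a trend of log2 CPM on transcript length, taken from genes that are no members, was removed from each library, the members' mean level ranged from −0.18 to 0.17 around its mean over all libraries, in place of −0.41 to 0.45. The part of transcript length in the members' differences between groups was not tested, and the labels give no RNA integrity values.

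**Figure D3:**
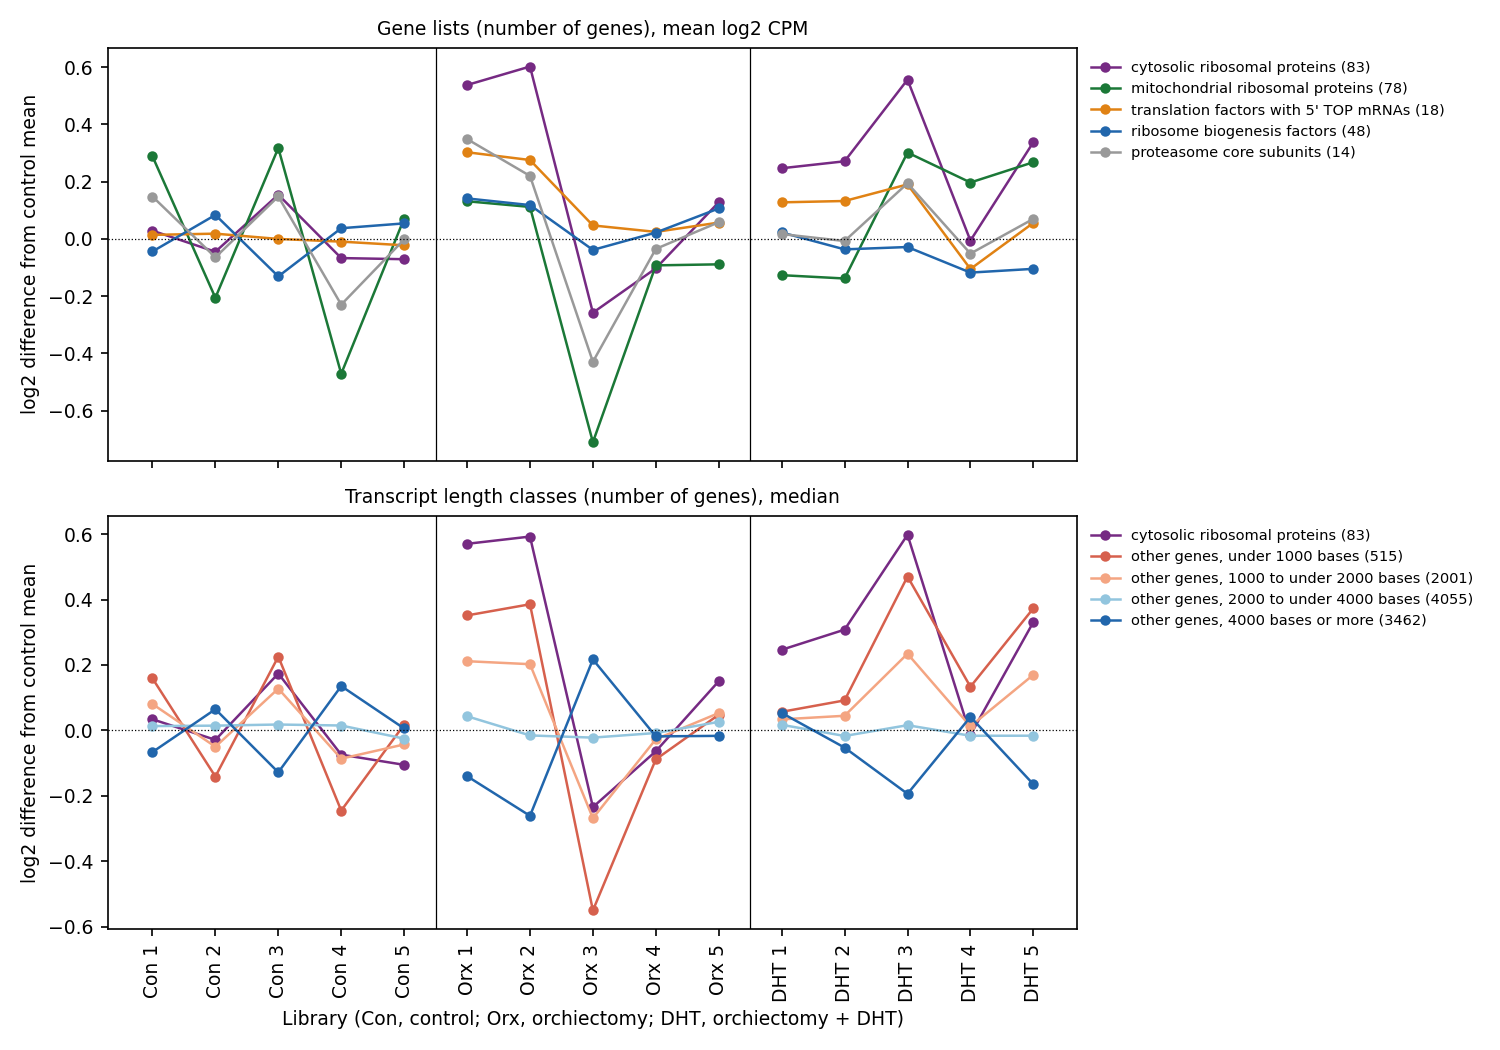
Difference from the control mean (log2, y axis) in each of the 15 aortas (x axis), for the mean of gene lists (top) and for the median of other genes by transcript length (bottom); the number of genes is in parentheses. Cytosolic ribosomal proteins peak in orchiectomy replicates 1 and 2 and DHT replicate 3. Other genes under 1000 bases are high there too, at 0.35, 0.39 and 0.47. In DHT replicate 5 these short genes are at 0.37 and the members' median is at 0.33. Genes of 4000 bases or more are at −0.14, −0.26 and −0.19 in orchiectomy replicates 1 and 2 and DHT replicate 3.

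Orchiectomy compared with control asked whether loss of the testes changed these mRNAs. No ribosomal protein gene passed the threshold of the study, an unadjusted P value under 0.01 (0 of 83, edgeR quasi-likelihood test, while 3.23% of the 14191 genes tested passed). The median log2 fold change of the members was 0.24, with 79 of 83 above 0, and that of all genes tested was 0.04, with 56.9% above 0. The members' median stayed between 0.22 and 0.30 under 4 other scalings and was 0.17 with the length trend removed, where 1 member was called (*Rps10*, against 3.64% of all genes in that fit). It was 0.15 without orchiectomy replicate 1 and 0.12 without orchiectomy replicate 2. At P under 0.05, 7 members were higher (8.43% of members, against 7.41% of all genes tested) and 0 lower (4.57% of all genes), and these were *Rpl22*, *Rpl39*, *Rpl36a*, *Rps3*, *Rps15a*, *Rps28* and *Rps3a1*. Because the members move together, these are not independent observations. Limma voom with quality weights called 1 member, *Rpl3l*, against 3.21% of all genes in that fit. DESeq2 called 0 members, and its share over all genes is not reported here.

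*Rpl22*, which encodes an RNA-binding large subunit protein that cells can do without for translation itself, had the smallest P value in this comparison. It was at 180, 182, 185, 186 and 179 CPM in control replicates 1 to 5 and at 288, 275, 181, 192 and 221 CPM after orchiectomy. Replicates 1 and 2 were far above the controls and replicate 3 was among them, so the groups overlapped. The log2 fold change was 0.34 ± 0.14 (SE; adjusted P = 0.366, edgeR quasi-likelihood test; 95% interval 0.05 to 0.64). *Rpl39*, a short protein at the exit tunnel, was at 92.1, 104, 115, 98.0 and 117 CPM in controls and at 174, 201, 103, 101 and 132 CPM after orchiectomy (0.43 ± 0.18, SE). Replicates 1, 2 and 5 were above the controls and replicates 3 and 4 were among them. *Rpl36a* (0.46 ± 0.20) and *Rps28* (0.49 ± 0.23) had the highest log2 fold changes of the members, and *Rps3*, a small subunit protein with a known second role in DNA repair, was at 0.29 ± 0.13. The 4 members with a fold change below 0 were *Rps4l* (−0.21 ± 0.26), *Rpl34* (−0.24 ± 0.36), *Rpl3l* (−0.62 ± 1.00) and *Rpl7l1* (−0.01 ± 0.07).

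Between orchiectomy and control, no member had groups that did not overlap, in either direction, where 0.994% of all genes tested were higher and 0.507% lower without overlap. The count of members at P under 0.01 depended on single libraries. Without orchiectomy replicate 3 there were 4 (*Rps26*, *Rps10*, *Rpl22* and *Rpl39*), where 3.53% of all genes passed. Without replicate 4 there were 2 (*Rps28* and *Rpl39*; 3.5% of all genes) and without replicate 2 there was 1 (*Rpl3l*; 1.83% of all genes). All of these were higher except *Rpl3l*. B cell, T cell and neutrophil markers moved in the same comparison. Macrophage markers (10 tested of 10 listed) stayed within the controls' range, at 601 to 945 CPM after orchiectomy and 360 to 1037 CPM in controls. B cell markers (7 tested of 10 listed, 0 at 0 counts in every library of a group) had summed levels of 3.93 to 9.91 CPM in controls and 7.75, 167, 43.1, 76.8 and 14.6 CPM in orchiectomy replicates 1 to 5. T cell markers (9 tested of 12) were at 5.62 to 16.1 CPM in controls and at 9.15, 57.0, 73.0, 42.0 and 17.3 CPM. Neutrophil markers (7 tested of 11) were at 8.25 to 34.9 CPM in controls and at 42.9, 1172, 44.3, 30.4 and 25.4 CPM, and their mean log2 CPM was above every control in all orchiectomy aortas, by 2.37, 3.91, 2.38, 1.29 and 1.55 over the control mean. Orchiectomy replicate 1, with high ribosomal protein levels, had B and T cell levels within the controls' range and a neutrophil level above it. Replicate 3, with the lowest ribosomal protein levels, had the highest T cell level. Orchiectomy replicate 2, with the highest ribosomal protein level, also stood apart on other cell types. Its summed level was 383 CPM for mesothelium markers (35.5 to 99.1 CPM in controls), 760 CPM for 9 Schwann cell markers (302 to 468 CPM) and 1907 CPM for 10 endothelial markers (1084 to 1597 CPM), and its smooth muscle level, 12898 CPM, was the lowest of the 15. The mean log2 level of 8 brown fat markers was below the control mean in all orchiectomy aortas (−0.95 to −0.28), within the range of single controls (−1.09 to 0.60). The part of these cell types in the members' values was not tested. In bulk tissue fewer cells of a type and less RNA per cell cannot be told apart.

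**Figure D4:**
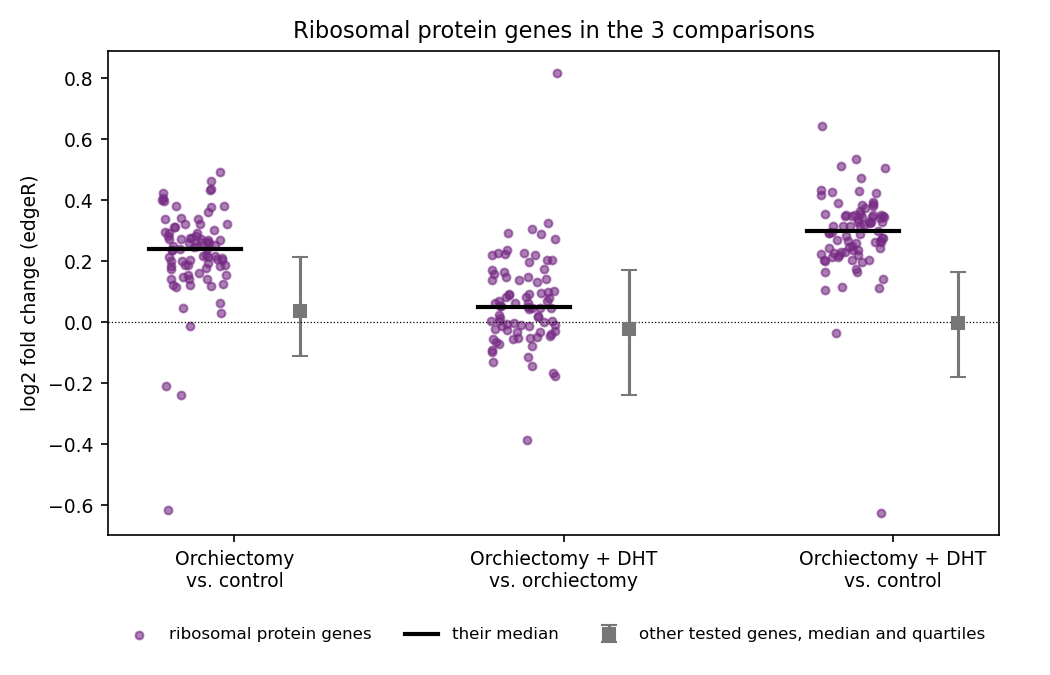
Log2 fold change (edgeR, y axis) of each of the 83 tested ribosomal protein genes (points, black line at their median) in the 3 comparisons, with the median and quartiles of the 14108 other tested genes (grey). Members sit mostly above 0 in both comparisons with control, with medians of 0.24 and 0.30, and around 0 between the DHT and the orchiectomy group, with a median of 0.05.

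DHT replacement compared with orchiectomy asked whether the androgen moved these mRNAs in castrated mice. None of the 83 members passed at P under 0.01, and 0 passed at P under 0.05 (edgeR quasi-likelihood test), although this comparison had the most calls of the 3, with 9.79% of all genes tested at P under 0.01 and 21.2% at P under 0.05. Limma voom called 1 member, *Rpl3l*, against 9.56% of all genes in that fit. DESeq2 called 0 members, and its share over all genes is not reported here. The median log2 fold change was 0.05, with 53 of 83 above 0 (−0.02 over all genes tested), and it turned to −0.03 when libraries were scaled by total counts and to −0.06 with the length trend removed. It was also just below 0 without orchiectomy replicate 3 (−0.005) or DHT replicate 3 (−0.0004). It was 0.14 without orchiectomy replicate 1, 0.15 without orchiectomy replicate 2 and 0.15 without DHT replicate 4, and 0.03 without orchiectomy replicate 4 or 5.

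*Rpl13*, a large subunit protein, had the smallest P value between these groups. It was at 603, 605, 356, 427 and 491 CPM in orchiectomy replicates 1 to 5 and at 561, 588, 764, 485 and 640 CPM in DHT replicates 1 to 5. The ranges overlapped, and the log2 fold change was 0.29 ± 0.17 (SE; adjusted P = 0.335, edgeR quasi-likelihood test; 95% interval −0.07 to 0.65). *Rplp0*, often used as a reference gene in PCR, was at 1002, 946, 730, 749 and 809 CPM after orchiectomy and at 806, 866, 1007, 702 and 855 CPM with DHT, a log2 fold change of 0.00 ± 0.13 (SE) with a 95% interval of −0.27 to 0.27. The groups again covered one another. *Rpl14*, *Rps19bp1* and *Rpl36* had the next smallest P values among those above 0, with log2 fold changes of 0.23 ± 0.16, 0.30 ± 0.21 and 0.29 ± 0.21. Among those below 0, *Rpl34*, with few counts, had the smallest P value and the lowest log2 fold change (−0.39). *Rps15a*, *Rps3* and *Rpl39* were at −0.18 ± 0.18, −0.12 ± 0.13 and −0.14 ± 0.18. No member had groups that did not overlap, where 2.05% of all genes were higher and 4.38% lower without overlap. Without orchiectomy replicate 2, 1 member was called, *Rpl3l*, against 8.4% of all genes.

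DHT-treated orchiectomized mice compared with controls asked whether replacement brought the levels back to those of intact mice. Again 0 of 83 members passed at P under 0.01 (edgeR quasi-likelihood test; 3.54% of all genes tested passed). At an adjusted P value under 0.05, 0 members were called in each of the 3 comparisons, where 0% of all genes tested were called for orchiectomy compared with control, 4.82% for DHT compared with orchiectomy and 0.261% for DHT compared with control. The median log2 fold change was 0.30, with 81 of 83 above 0, and −0.003 over all genes tested, with 49.6% above 0. It lay between 0.28 and 0.31 under the other scalings and was 0.11 with the length trend removed. At P under 0.05, 15 members were higher (18.1% of members, against 5.33% of all genes tested) and 0 lower (6.5% of all genes). Among them were the large subunit genes *Rpl13*, *Rpl37rt*, *Rpl21*, *Rpl13a*, *Rpl27a*, *Rpl36*, *Rpl41*, *Rpl14*, *Rpl19* and *Rpl24* and the small subunit genes *Rps15*, *Rpsa*, *Rps6* and *Rps23*. *Rpl34*, with few counts (−0.63), and *Rpl7l1* (−0.03) were the members with a log2 fold change below 0. The same controls serve in this comparison and in that of orchiectomy with control.

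Markers of other cell types also differed between DHT and control aortas. The mean log2 level of 10 smooth muscle markers was 0.22 to 0.50 above the control mean in the DHT aortas (summed levels of 23469 to 29133 CPM, against 16335 to 23559 CPM in controls). That of 7 mesothelium markers was 1.24 to 2.42 log2 units lower (8.85 to 24.4 CPM, against 35.5 to 99.1 CPM), and that of 10 fibroblast markers 0.02 to 0.83 lower. Neutrophil markers were above the control mean by 0.61, 0.31, 0.31, 0.61 and 1.18 in DHT replicates 1 to 5, where the highest control was at 0.24. No marker of these lists was at 0 in every library of a group. Their part in the members' values was not tested.

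*Rpl13* was at 468, 446, 557, 419 and 362 CPM in control replicates 1 to 5, against the DHT levels given above. All DHT aortas but replicate 4 were above every control. The log2 fold change was 0.43 ± 0.17 (SE; adjusted P = 0.353, edgeR quasi-likelihood test; 95% interval 0.07 to 0.79). *Rps15*, at the head of the small subunit, was at 332, 324, 415, 295 and 292 CPM in controls and at 407, 461, 642, 360 and 495 CPM with DHT (0.51 ± 0.21, SE), and *Rpl21* differed by 0.42 ± 0.17. *Rpl37rt*, named as a retrotransposed copy of *Rpl37*, was the only member whose groups did not overlap (1 of 83, against 1.78% of all genes tested that were higher without overlap). It was at 8.06, 7.59, 7.41, 8.28 and 7.21 CPM in controls and at 11.9, 12.1, 13.7, 9.39 and 13.2 CPM with DHT (0.64 ± 0.27, SE; adjusted P = 0.374). It had 68 to 161 counts per library, and 27.3% of its stretches occur in other transcripts, those of *Rpl37* among them, so its reads may be shared.

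The calls between DHT and control also depended on the model. DESeq2 called 1 member (*Rpl13*), against 4.96% of all genes. Limma voom called 7 (*Rps15*, *Rpl36*, *Rpl21*, *Rpl13a*, *Rpl13*, *Rpsa* and *Rpl14*), against 7% of all genes. A fit to these 2 groups alone called 9 of 83, against 4.78% of all genes (*Rpl37a*, *Rps15*, *Rpl41*, *Rpl38*, *Rps29*, *Rpl37*, *Rpl36*, *Rps21* and *Rpl37rt*), all higher. Without control replicate 3 there was 1 (*Rpl13*; 3.3% of all genes), without orchiectomy replicate 3 there were 2 (*Rpl36* and *Rpl13*; 3.71%) and without orchiectomy replicate 4 there was 1 (*Rpl37rt*; 3.24%).

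The subunits and sequence classes were read side by side. Large subunit genes (49 tested) had medians of 0.22, 0.06 and 0.30 on the log2 scale for orchiectomy compared with control, DHT compared with orchiectomy and DHT compared with control, and small subunit genes (34 tested) 0.27, 0.05 and 0.31. The 13 tested members with the pyrimidine run at their annotated start had medians of 0.27, −0.01 and 0.34, and the 50 with a promoter entry but without the run 0.23, 0.05 and 0.27. For the 33 members with at least 50% of stretches shared with other transcripts the medians were 0.21, 0.07 and 0.28, and for the 16 with under 10% 0.25, 0.02 and 0.26. These are descriptions with no test. The stalk genes *Rplp1* and *Rplp2* differed between orchiectomy and control by 0.22 ± 0.20 and 0.27 ± 0.21 (SE), and *Rpsa* by 0.19 ± 0.18.

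Paralogs can replace their partner in some ribosomes, and 7 of the 10 on the list fixed for them and for a related binding protein were tested. *Rpl22l1*, the paralog of *Rpl22*, was at 46.9, 43.1, 45.4, 45.2 and 38.4 CPM in controls, at 70.6, 77.8, 32.9, 47.7 and 56.0 CPM after orchiectomy and at 56.0, 58.5, 61.8, 31.7 and 52.2 CPM with DHT. As for the core genes, orchiectomy replicates 1 and 2 were high and replicate 3 was low. *Rpl36al* was at 77.8 to 180 CPM and *Rps27l*, a p53-inducible paralog, at 54.6 to 106 CPM over the 3 groups, and neither passed in any comparison. *Rps4l* was at 12.5 to 37.5 CPM over the 15 aortas (0.32 ± 0.26 for DHT compared with orchiectomy, SE). *Rps19bp1*, which encodes a protein that binds RPS19 and is not itself a subunit, was at 11.8 to 32.6 CPM.

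*Rpl3l* had 34, 3, 4, 24 and 16 counts in control replicates 1 to 5, 0, 48, 1, 1 and 2 after orchiectomy and 15, 6, 18, 20 and 15 with DHT. Apart from orchiectomy replicate 2, the orchiectomy aortas were below all others. With that aorta the log2 fold change was −0.62 ± 1.00 (SE) for orchiectomy compared with control and 0.82 ± 1.01 for DHT compared with orchiectomy. Without it the values were −3.91 and 4.10, and both passed the threshold (edgeR quasi-likelihood test), and limma voom with all aortas gave −2.81 and 2.90. Skeletal muscle markers were read beside it. The summed level of 11 of 11 markers was 550, 46.1, 67.2, 272 and 51.2 CPM in controls. It was 16.6, 208, 13.3, 12.6 and 67.1 CPM after orchiectomy and 287, 90.7, 511, 331 and 220 CPM with DHT. No marker was at 0 in every library of a group. The markers were not uniform, with 3 of 11 above 0 for orchiectomy compared with control (log2 fold changes of −4.67 to 1.90). For DHT compared with orchiectomy, 10 of 11 were above 0. Control replicate 5 had 16 *Rpl3l* counts at 51.2 CPM of markers, and orchiectomy replicate 5 had 2 counts at 67.1 CPM. The part of adhering skeletal muscle in the *Rpl3l* values was not tested.

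**Figure D5:**
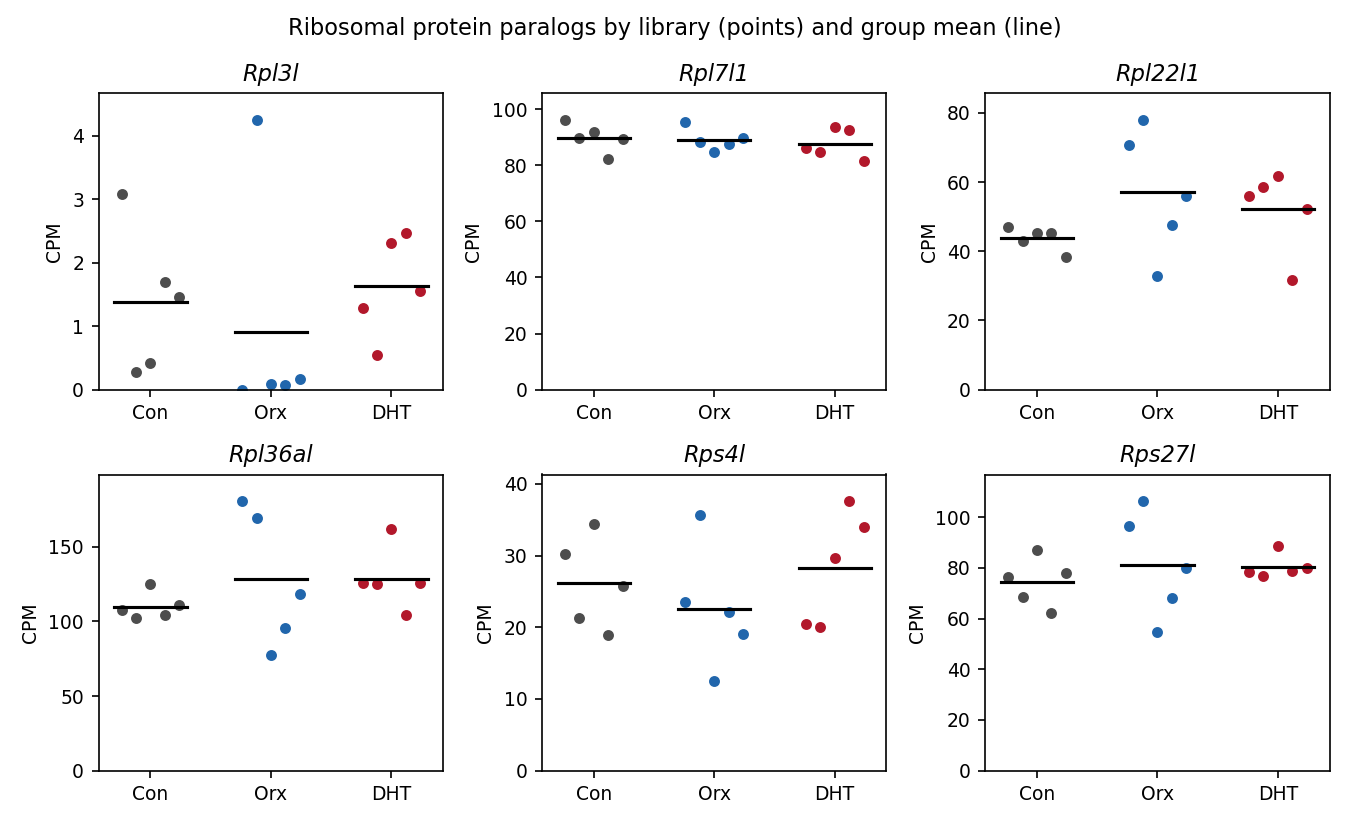
CPM (y axis, from 0) of 6 ribosomal protein paralogs in each aorta (points) and group mean (line) for control (Con), orchiectomy (Orx) and orchiectomy with DHT (DHT), 5 aortas each. *Rpl7l1* stays between 81.4 and 96.0 CPM, and *Rpl3l* is at or near 0 in 4 of 5 orchiectomy aortas and at 4.24 CPM in replicate 2.

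Other gene groups of ribosome production were read beside the members. Their counts of calls stand against 3.23% of all genes tested for orchiectomy compared with control, 9.79% for DHT compared with orchiectomy and 3.54% for DHT compared with control. *Fau* and *Rack1*, ribosomal proteins outside the naming rule, did not pass in any comparison. *Rack1*, a scaffold on the small subunit, was at 0.25 ± 0.11 (SE) for orchiectomy compared with control and *Fau* was at 0.47 ± 0.20 for DHT compared with control. Mitochondrial ribosomal proteins, which build the separate ribosome of mitochondria, had 0 of 78 called in each comparison, with medians of −0.12 for orchiectomy compared with control, 0.22 for DHT compared with orchiectomy and 0.11 for DHT compared with control. Translation factors known to have TOP mRNAs (18 tested) had medians of 0.16, −0.05 and 0.10, and 1 of 18 was called where 3.23% of all genes passed, *Npm1*, a nucleolar chaperone, higher after orchiectomy (0.35 ± 0.12, SE; adjusted P = 0.307, edgeR). The list's mean in single control aortas differed from its control mean by −0.02 to 0.02, in orchiectomy replicates 1 to 5 by 0.30, 0.28, 0.05, 0.02 and 0.06, and in the DHT replicates by 0.13, 0.13, 0.19, −0.11 and 0.06.

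Ribosome biogenesis factors (48 tested) had medians of 0.05, −0.12 and −0.05, with 1, 1 and 0 of 48 called in the 3 comparisons. *Npm1*, which is on this list too, rose after orchiectomy, and *Nop58*, a core protein of box C/D snoRNPs, fell with DHT compared with orchiectomy (−0.47 ± 0.13, SE; adjusted P = 0.0514, edgeR). RNA polymerase I genes (15 tested) had 0 called in each comparison, with *Polr1c* at −0.31 ± 0.11 for DHT compared with orchiectomy. Proteasome core subunits (14 tested), which like ribosomal proteins are parts of a large complex with short mRNAs, had 0 called in each comparison. Their medians were 0.04, −0.03 and 0.04. In single aortas, their mean was farthest below its control mean in orchiectomy replicate 3 (−0.43) and farthest above in orchiectomy replicate 1 (0.35). It differed by −0.23 to 0.15 in controls and by −0.05 to 0.19 with DHT. In the mTOR list (19 tested), 3 genes were lower after orchiectomy than in control, where 3.23% of all genes tested passed in either direction. They were *Deptor*, an inhibitor of mTOR (−1.31 ± 0.39, SE; adjusted P = 0.280, edgeR), *Larp4*, a poly(A)-binding regulator of mRNA stability (−0.43 ± 0.13), and *Mtor* itself (−0.79 ± 0.26). With DHT compared with orchiectomy, where 9.79% of all genes tested passed, 2 were higher, *Rps6kb2*, a kinase of ribosomal protein S6 (0.45 ± 0.14), and *Deptor* (1.16 ± 0.39), and *Myc*, a transcription factor that drives ribosome production, fell (−0.96 ± 0.24, SE; adjusted P = 0.0362, edgeR). Between DHT and control 0 of 19 were called (edgeR; 3.54% of all genes).

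Libraries held 8268957 to 13816864 gene counts, so 10 counts corresponded to 0.724 to 1.21 CPM before scaling. Smooth muscle markers, which define the aortic wall, were all detected in every library, with summed levels of 12898 to 29133 CPM. The median standard error of a single member's log2 fold change was 0.173 in each comparison.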

How the data were processed

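Poly(A) RNA of 15 whole aortas, 5 per group, had been sequenced by the authors, who deposited raw read counts per gene symbol for each aorta. The submitters' processing notes name STAR, Cufflinks, DESeq2 and mm10. The counting program, its annotation and its handling of reads that fit several genes are not given in the sources used here. Library totals were 8268957 to 13816864 gene counts, which limits how precisely low genes were measured. The lines for reads in no gene (6.26% to 14.4%) and for ambiguous reads (1.34% to 1.97%) were left out. The labels number the aortas 1 to 5 within a group. P values set the difference between groups against the spread between libraries within groups. No pair of libraries in a group differed by as little as counting noise (lowest chi-square per degree of freedom 11.9).

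Genes with at least 10 counts in at least 5 libraries (14191) were fitted with edgeR 4.0.16 (R 4.3.3) using TMM scaling, all 15 libraries and a quasi-likelihood test for each of the 3 comparisons. A call was an unadjusted P value under 0.01, and P values adjusted by Benjamini-Hochberg over all genes tested are given beside it. Log2 CPM was computed with a prior count of 3. The scripts were tested on simulated data. Named genes were, per comparison, the 4 higher and 4 lower members of smallest P value, the 2 farthest above and below the members' median, the 5 most abundant, the paralogs, the stalk genes with *Rpsa*, members with few counts, and up to 2 genes of each other list with the smallest P value in a comparison. Genes outside this rule were named where a count of them is given. The members and lists were chosen with earlier results of these data known.

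Transcript lengths came from 1 GENCODE M21 transcript per gene (protein-coding, APPRIS principal, best support, longest), and shared sequence was counted in stretches of 100 bases over all transcripts. Start windows and promoters came from RefSeq (GRCm38.p6). Alternatives were other scalings, DESeq2 1.42.0, limma 3.58.1 voom with quality weights, other filters, a robust fit, a fit to 2 groups, the replicate number as a block, each library left out, and, chosen after seeing the data, removal of a trend on transcript length. Some genes of these lists are not reported here. Plots were drawn with matplotlib 3.10.9 in Python 3.11.15.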

Additional observations from a re-analysis of the deposited data

Results flagged for a closer look

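In 93 groups of 5 aortas, the gap between the highest or lowest aorta and its nearest neighbour was divided by the range of the group, on the log2 CPM scale. It was above 0.71, Dixon's critical value for 5 samples, in 5 groups, where chance alone gives about 1 in 20. *Rpl3l* had the value 0.834 for orchiectomy replicate 2, the highest aorta of its group. *Rpl4* had 0.915 for control replicate 5, the lowest at 576 CPM. *Rpl34*, with few counts, had 0.807 for DHT replicate 3, the lowest. *Rpl22l1* had 0.747 for DHT replicate 4, the lowest, and *Rps27l* had 0.720 for DHT replicate 3, the highest.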

How the results depend on the processing

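The count of ribosomal protein genes called, 0 in each comparison, stayed at 0 under the 4 other scalings, both other filters, the robust fit and an adjusted P value under 0.05. It became 1 with DESeq2 for DHT compared with control. With limma voom it became 1, 1 and 7 for orchiectomy compared with control, DHT compared with orchiectomy and DHT compared with control. It became 9 for DHT compared with control when only these 2 groups were fitted, and 1 for orchiectomy compared with control with the length trend removed (*Rps10*). With each library left out in turn it ranged from 0 to 4, 0 to 1 and 0 to 2 in the 3 comparisons. The causes were not tested.

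With the replicate number as a block the counts were 0, 0 and 0 and the medians 0.23, 0.05 and 0.30, so the block changed no call. Same-numbered aortas did not deviate together as a set (median correlation 0.018, range −0.46 to 0.46, above 0.1 in 4 of 15 pairs). The labels do not say what a shared number means. The members' median ranged from 0.12 to 0.31, −0.005 to 0.15 and 0.22 to 0.37 with each library left out. The difference in share of gene counts ranged from 0.28 to 0.65, −0.16 to 0.21 and 0.37 to 0.64 percentage points. Of 702 values of named genes under alternatives, 6 changed sign. These were *Rpl34* (0.011 without control replicate 5, with a range of −0.42 to 0.011 over the libraries left out) and *Rpl7l1* (0.00065 with upper quartile scaling, 0.045 by total counts) for orchiectomy compared with control, and *Rps15a* (0.0041 with limma voom) and *Rpl39* (0.0051 with limma voom, and 0.035 without orchiectomy replicate 2, with a range of −0.20 to 0.035) for DHT compared with orchiectomy. The share without mitochondrial genome genes was not run, since 0 counted symbols start with mt-. Counts of *Rps27*, *Rpl34* and *Rpl3l* were too low for small differences to be detectable.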
